A study of Mus musculus with 5 samples.

Results

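The Santa Cruz Pcgf6 ChIP-seq libraries were compared with input DNA from the same mouse embryonic stem cell (ESC) line. This comparison used 3 of the 5 libraries of the series: the 2 repeats made with the Santa Cruz antibody sc-160649 and the single input library. They were chosen by their titles and not by any measured value. The 2 Abcam libraries (antibody ab48010) are given beside them where a value needs a second antibody. All libraries came from CCE cells, an established mouse ESC line, grown in serum with LIF and cross-linked with disuccinimidyl glutarate and paraformaldehyde. The labels name no genetic change, treatment or time point, so the groups differ only in the antibody, and the input had none. Neither Pcgf6-depleted cells nor a nonspecific antibody was analysed here, so the coverage alone cannot check that Pcgf6 was the protein pulled down.

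Pcgf6 is a RING-type Polycomb group protein that defines a variant Polycomb repressive complex, PRC1.6. The complex joins the ubiquitin ligases Ring1 and Rnf2 to several DNA-binding partners. Mga with Max recognises the E-box CACGTG, and E2f6 with a Tfdp partner recognises E2F-type sites such as TTTCCCGC. In ESCs the complex is best known at CpG-rich promoters of genes that are used in germ cells and kept silent elsewhere.

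The input library held 22801077 fragments of 300 bp and the Santa Cruz repeats held 2289605 and 2299487. Of the fragment positions in repeat 1, 87.9% were also found in repeat 2, and their counts in 10 kb windows gave a chi-square of 0.119 per degree of freedom. The repeats therefore differed by less than sampling noise. They were treated as a single sample, and no spread over repeats is given. All tests compare the fragments of 1 ChIP library with those of 1 input library. Intervals cover counting error only.

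Sequence upstream of some promoters with strong Santa Cruz signal is shown first. The examples favour promoters with an E-box, which 28 of 99 such promoters held in a wider search given below (28.3%). Boll and E2f6 had strong signal without CACGTG in the 200 bases upstream and are not printed. Whether the motif accounts for the signal was not tested. The 200 bases upstream of the transcription start site (TSS) are printed from mm9 on the strand of the gene, 5′ to 3′, with CACGTG in capitals. The Ddx4 stretch lies at chr13:113442519-113442718 (minus strand), with an E-box that starts 29 bases before the TSS. That of Stk31 lies at chr6:49345434-49345633 (plus strand) with an E-box 151 bases before the TSS. That of Sycp1 lies at chr3:102740024-102740223 (minus strand) with an E-box 94 bases before the TSS. That of Tex12 lies at chr9:50369374-50369573 (minus strand) with an E-box 93 bases before the TSS. That of Tdrd1 lies at chr19:56900499-56900698 (plus strand) with an E-box 11 bases before the TSS. The stretches of Tdrkh at chr3:94217018-94217217 and of Hdac2 at chr10:36694150-36694349 (both plus strand) hold no CACGTG. Their highest Santa Cruz depth lay in bins that start 600 and 500 bases before the TSS, outside the printed bases. These stretches therefore do not show the sequence under their strongest signal.
Ddx4: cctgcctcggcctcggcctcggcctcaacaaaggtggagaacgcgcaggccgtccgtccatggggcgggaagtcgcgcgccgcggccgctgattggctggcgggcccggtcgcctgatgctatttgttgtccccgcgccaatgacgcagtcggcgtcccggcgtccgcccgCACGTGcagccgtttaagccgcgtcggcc
Stk31: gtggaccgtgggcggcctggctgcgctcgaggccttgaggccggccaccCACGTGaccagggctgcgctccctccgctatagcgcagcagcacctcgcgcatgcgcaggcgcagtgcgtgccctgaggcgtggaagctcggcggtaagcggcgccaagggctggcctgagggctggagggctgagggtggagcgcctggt
Sycp1: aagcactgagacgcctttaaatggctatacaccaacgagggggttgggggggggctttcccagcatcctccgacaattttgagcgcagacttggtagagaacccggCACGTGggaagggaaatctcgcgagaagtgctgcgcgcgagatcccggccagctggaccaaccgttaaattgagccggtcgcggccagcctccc
Tex12: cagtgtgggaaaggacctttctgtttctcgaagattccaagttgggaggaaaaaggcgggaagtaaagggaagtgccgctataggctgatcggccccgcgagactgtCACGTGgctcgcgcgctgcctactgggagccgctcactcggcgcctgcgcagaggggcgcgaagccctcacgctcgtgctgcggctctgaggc
Tdrd1: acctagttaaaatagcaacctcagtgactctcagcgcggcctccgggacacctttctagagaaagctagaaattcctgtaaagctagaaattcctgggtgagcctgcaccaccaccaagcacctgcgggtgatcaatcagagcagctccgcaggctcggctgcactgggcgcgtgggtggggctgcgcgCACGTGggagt
Tdrkh: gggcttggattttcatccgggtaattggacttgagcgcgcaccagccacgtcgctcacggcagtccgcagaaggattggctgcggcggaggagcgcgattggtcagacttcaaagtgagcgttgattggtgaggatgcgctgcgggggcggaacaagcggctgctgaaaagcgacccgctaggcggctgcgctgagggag
Hdac2: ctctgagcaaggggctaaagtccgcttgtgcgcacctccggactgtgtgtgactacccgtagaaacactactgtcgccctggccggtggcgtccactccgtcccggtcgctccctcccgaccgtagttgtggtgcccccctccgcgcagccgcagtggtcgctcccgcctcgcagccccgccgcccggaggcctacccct

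A promoter here is the ±2 kb window centred on the main TSS of a protein-coding gene. Few of them stood above the input, and germ cell genes led that group. Of 21589 promoters tested, 113 were higher with Santa Cruz (0.523%) and 3 were lower (0.0139%) at an adjusted p under 0.05 (exact binomial test, Benjamini-Hochberg). The ratio of Santa Cruz to input, scaled by the depth of each file, was 2 or more at 1445 promoters (6.69%). The median window contained 6 Santa Cruz and 72 input fragments. In simulations at these depths, 3% of promoters with a planted 2-fold enrichment were called, 50% of those with 3-fold and 88.5% of those with 5-fold. Smaller enrichments were therefore mostly not detectable at this depth. Across all promoters the ratio had a median of 0.893 and quartiles of 0.631 and 1.24.

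Of the 113 promoters, 14 lay where the input itself exceeded 3 times the median promoter. The other 99 fell into 85 separate regions, because neighbouring genes can share a window. Their ratios ran from 2.33 to 13.2 with a median of 3.42. At the same promoters the median Abcam ratio was 3.49. The Abcam ratios share the input library with the Santa Cruz ratios.

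Ddx4, the germ cell RNA helicase also called Vasa, had the largest ratio among called promoters with at least 30 input fragments. Its window (TSS at chr13:113442518) held 32.0 and 33.0 fragment equivalents in Santa Cruz repeats 1 and 2. The input held 32 fragments there, which is 3.22 when scaled to the Santa Cruz total. The median promoter window held 72 input fragments. The ratio of the averaged repeats to the input was 10.1 (95% interval 5.89 to 16.8; exact binomial test, adjusted p = 8.28e-14). The Abcam ratio was 10.4.

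Olfr1461, an olfactory receptor gene, had a larger ratio of 13.2 but rested on few fragments. The repeats held 8 and 9 fragment equivalents against 6 input fragments. Its interval ran from 4.74 to 50.9, and its Abcam ratio was 1.59. Santa Cruz and Abcam differed there only without adjustment (exact binomial test, p = 0.00703, adjusted p = 1).

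Tdrkh, a Tudor-domain partner of Piwi proteins, held 32.0 fragment equivalents in each repeat against 5.13 of scaled input, a ratio of 6.23 (3.88 to 9.89). Stk31, a testis kinase with a Tudor domain, held 30.4 and 30.3 against 5.42, a ratio of 5.60 (3.41 to 8.78). Taf7l, the germ cell paralogue of the TFIID subunit Taf7, held 17.0 and 18.1 against 3.11, a ratio of 5.65 (3.04 to 10.6). In all 3 promoters both repeats lay above the scaled input, and the interval of the ratio stayed above 1. The call rests on the mean of these repeats, which share most fragments, so neither is separate support. Their Abcam ratios were 7.65, 6.66 and 5.53.

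Several of the strongest promoters belonged to no germ cell list. Neto2, an auxiliary subunit of kainate receptors, held 30 and 31 fragment equivalents against 5.55 of scaled input, a ratio of 5.50 (3.35 to 8.61). B930007M17Rik had a ratio of 5.05, Cenpk, a kinetochore protein, 4.54, the orphan receptor Gpr176 4.47, and Gm129 4.43. In each of these genes both repeats lay above the scaled input, which is no separate support because the call rests on their mean. The Abcam ratio was 6.56 at Neto2 and 2.71 at Cenpk, and the antibodies did not differ past the threshold at Cenpk (exact binomial test, unadjusted p = 0.115). The window of Cenpk overlaps that of Ppwd1, which was called at 4.27, so its counts cannot be assigned to a single gene.

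**Figure D1:**
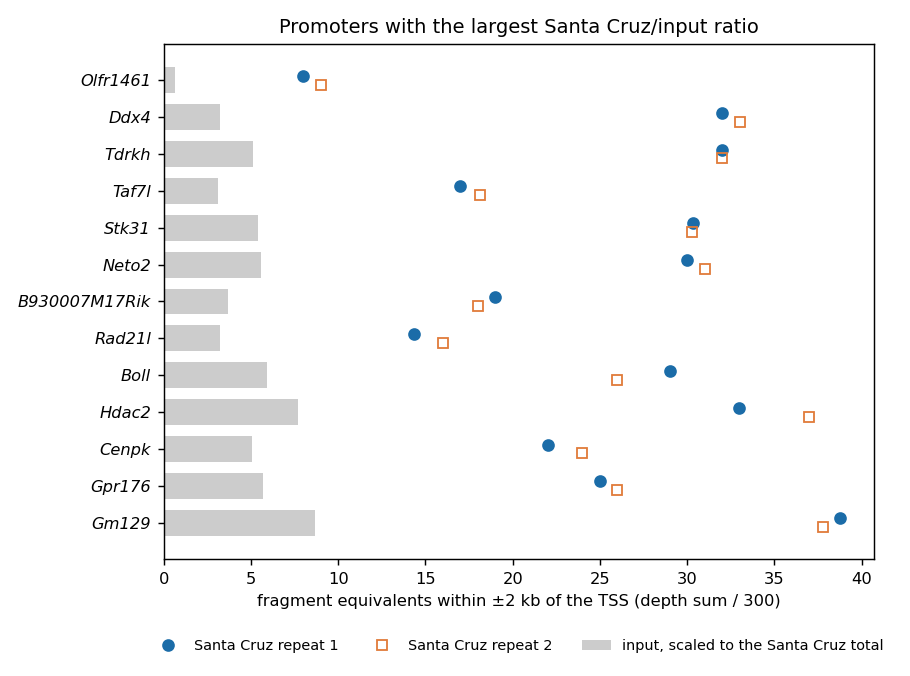
Fragment equivalents within ±2 kb of the TSS at the promoters with the largest Santa Cruz/input ratio, leaving out any whose windows overlap one another. Points are the 2 Santa Cruz repeats, which share most fragments, and grey bars are the input scaled to the Santa Cruz total. The promoters were chosen by this ratio, so every point lies beyond its bar. Ddx4 combines 32.0 and 33.0 fragment equivalents with a scaled input of 3.22.

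Genes of the germline and meiosis list were called far above the background of 0.523%. Of 59 tested, 18 were higher (30.5%) and none was lower, and the median ratio was 1.71 against 0.893 over all promoters. The summed fragments of the list gave a ratio of 2.05 (1.90 to 2.20) and an Abcam ratio of 2.11. The members were chosen with earlier results known, so these counts are a description.

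In the piRNA and RNA-handling group, which protects germ cells from transposons, Ddx4, Tdrkh and Stk31 led. Mov10l1, the piRNA helicase, held 27.8 and 27.9 fragment equivalents against 6.64 of scaled input, a ratio of 4.20 (2.61 to 6.65). Tdrd1, a Tudor-domain scaffold, held 25 and 26 against 7.29, a ratio of 3.50 (2.20 to 5.69). Other Tudor genes did not pass the test, with ratios of 1.07 at Tdrd12, 0.917 at Tdrd6, 0.747 at Tdrd9 and 0.567 at Tdrd7. Among the Piwi genes Piwil2 was at 2.86, Piwil4 at 1.37 and Piwil1 at 0.913, and none passed the test. Members of the pathway thus covered a range from 0.567 to 10.1.

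Boll and Dazl belong to the DAZ family of translational regulators in germ cells. Boll held 29.0 and 26.0 fragment equivalents against 5.90 of scaled input, a ratio of 4.66 (2.90 to 7.51). Dazl held 22.4 and 21.5 against 7.02, a ratio of 3.12 (1.84 to 5.10). Both were called higher.

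The synaptonemal complex joins paired chromosomes in meiosis. Sycp1, its transverse filament, held 26.0 and 27.0 fragment equivalents against 6.05 of scaled input, a ratio of 4.38 (2.73 to 7.15). Syce1, a central element protein, held 30.7 and 28.7 against 6.83, a ratio of 4.35 (2.75 to 6.83). Tex12, another central element protein, was at 4.21 and the axial protein Sycp2 at 3.60. Sycp3 (1.78), Syce2 (1.47) and Syce3 (1.20) were not called. The Abcam ratio of Syce1 was 2.04, and the direct difference between the antibodies was not past the threshold after adjustment (exact binomial test, p = 0.0120, adjusted p = 1).

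Among meiotic cohesins, which hold sister chromatids together, Rad21l was at 4.68 (2.34 to 8.85), Stag3 at 3.04 and Smc1b at 2.97, all called higher, whereas Rec8 was at 1.06. Of the recombination genes, the mismatch-repair homologue Msh4 was at 3.05 and the histone-mark reader Zcwpw1 at 3.23, both called. Msh5 (1.72), Dmc1 (1.71), Spo11 (1.98) and Prdm9 (1.13) were not called. Among the transcription factors Dmrtb1 was called at 3.28 while Dmrt1 was at 1.39. The lowest member of the list was Zbtb16, a factor of spermatogonial stem cells, which held 4 and 3 fragment equivalents against 10.1 of scaled input, a ratio of 0.347. Smc1b shares its window with Ribc2, Zcwpw1 with Mepce and Stag3 with Gpc2, so the window counts there cannot be assigned to a single gene. The highest Santa Cruz bin began 100 bp downstream of the Zcwpw1 TSS and 1300 bp upstream of the Mepce TSS. For Stag3 and Gpc2 it began 100 bp downstream and 400 bp upstream. For Smc1b and Ribc2 it began at 0 bp and 100 bp upstream.

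The 41 germline promoters that did not pass the test had a median ratio of 1.33, and 28 of them lay above 1. Of these 41, 16 were CpG-rich and 12 held an E-box. Of the 18 called ones, 15 were CpG-rich and 7 held an E-box.

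**Figure D2:**
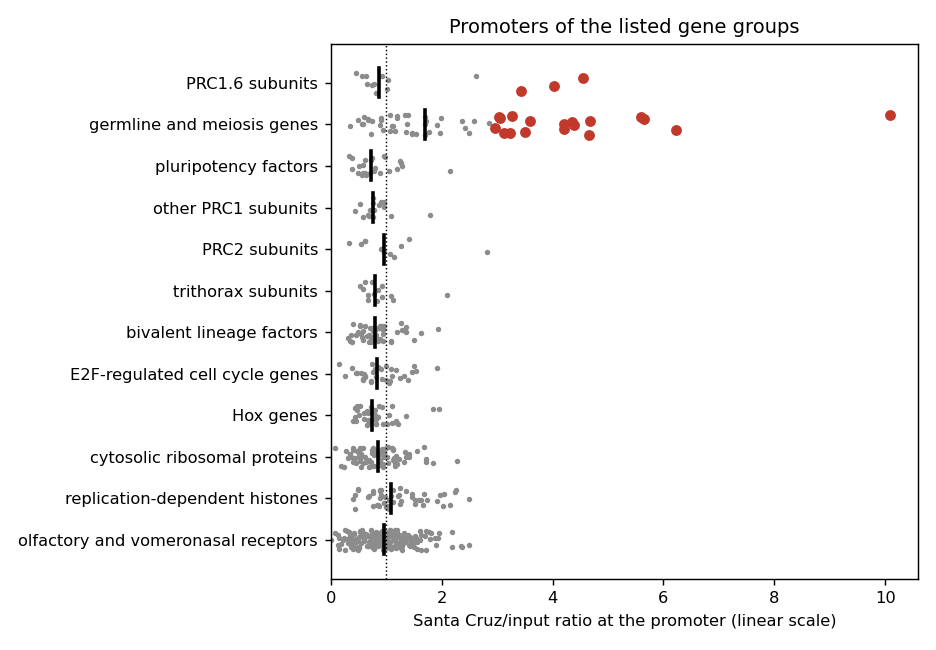
Santa Cruz/input ratio at the promoters of 12 gene groups, for promoters with at least 30 input fragments. Red points were called higher, grey points were not, black bars are group medians and the dotted line marks a ratio of 1. Red points occur only in the PRC1.6 and germline rows (Olfr1461, with 6 input fragments, is not drawn), where Ddx4 lies farthest right at 10.1.

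Of the 14 PRC1.6 subunit genes, 3 were called higher (21.4%, against 0.523% of all promoters). Hdac2, a histone deacetylase of the complex, held 33.0 and 37.0 fragment equivalents against 7.71 of scaled input, a ratio of 4.54 (2.94 to 6.82; exact binomial test, adjusted p = 4.44e-08). E2f6 held 30.3 and 32.3 against 7.79, a ratio of 4.02 (2.55 to 6.14). Mga held 31.0 and 31.1 against 9.05, a ratio of 3.43 (2.2 to 5.2). In these 3 genes both repeats were at least 3 times the scaled input, which is no separate support because the call rests on their mean. Tfdp1, the E2F dimerisation partner, held 21 in each repeat against 8.01, a ratio of 2.62 that missed the threshold (exact binomial test, adjusted p = 0.0585). The Abcam ratios of these 4 genes were 4.52, 4.69, 4.22 and 2.44.

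The other subunit genes stood at or below the input. Pcgf6 itself was at 0.739 (0.262 to 1.67), Max at 1.01, Ring1 at 1.04, Rnf2 at 0.633, L3mbtl2 at 0.651 and Hdac1, the lowest, at 0.455. The median of the 14 was 0.874 with Santa Cruz and 1.35 with Abcam, against 0.893 and 0.936 over all promoters. The summed fragments of the list gave a Santa Cruz ratio of 1.53 (1.30 to 1.78) and an Abcam ratio of 1.73.

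The study's question concerned the pluripotency factors. None of 27 pluripotency factor promoters was called higher (0%, against 0.523% of all promoters), and their median ratio was 0.745. At that share a call in a list of this size would be rare. Pou5f1 (Oct4) held 7 Santa Cruz fragments against 117 in the input, a ratio of 0.612 (0.234 to 1.26). Sox2 held 7 against 99, a ratio of 0.727 (0.275 to 1.502), and Nanog held 12 against 133, a ratio of 0.897 (0.452 to 1.62). The interval of each includes 1, and an enrichment of 2-fold averaged over the ±2 kb window lies outside all 3. Their Abcam ratios were 0.694, 1.02 and 1.04. A narrower signal is diluted in a window of this width, and narrower windows are not reported here for these genes. The highest member of the list was Tcl1 at 2.15 (exact binomial test, adjusted p = 0.340) and the lowest Dppa5a at 0.326. The paper reports Pcgf6 enrichment at the Oct4, Sox2 and Nanog promoters from its ChIP-seq tracks. It called peaks with MACS, assigned those within ±10 kb of a TSS to promoters and used both antibodies, so windows and thresholds differ from those here. It also reports less Pcgf6 ChIP-qPCR signal at Oct4 and Nanog after Pcgf6 knockdown. The effect of knockdown was not tested here.

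No promoter of the other chromatin regulators was called, and at the share of 0.523% over all promoters a call in lists of this size would be rare. The promoters of 19 other PRC1 genes had a median ratio of 0.769 and reached 1.79 at Bcor. Those of 11 PRC2 genes had a median of 0.956. Suz12, a core PRC2 subunit, held 18 fragments against 62 in the input, a ratio of 2.82 just outside the threshold (exact binomial test, adjusted p = 0.0503). The 15 trithorax genes had a median of 0.828 and reached 3.14 at Dpy30, which rested on 4 fragments against 13.

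No promoter was called among developmental genes under classical Polycomb control, cell cycle, ribosomal protein or histone genes either, where the share of 0.523% over all promoters likewise allows few calls. The median ratio was 0.752 over 39 Hox genes, with Hoxa4 highest at 1.95 and Hoxc11 lowest at 0.399. It was 0.794 over 49 bivalent lineage factors, from 0.317 at Gata4 to 1.93 at Dlx2. Among 35 E2F-regulated cell cycle genes the median was 0.815, and Ccne2 was highest at 1.91. The highly transcribed ribosomal protein genes, 83 in all, had a median of 0.869, from Rpl23a at 0.0751 to Rps4x at 2.28. Replication-dependent histone genes had a median of 1.06 over 63 promoters, and Hist1h2bh was highest at 5.55 on 8 fragments against 15.

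Olfactory and vomeronasal receptor genes, which are silent in ESCs, had a median ratio of 1.26 over 1347 promoters, above that of all promoters. The median GC content of their windows was 36.6%, and they held a median of 2 Santa Cruz fragments. Only Olfr1461 was called (0.0742%, against 0.523% of all promoters), at a depth that leaves little room for calls. The largest ratio, 19.9 at Olfr201, came from 4 fragments against 2 in the input and was not called. The Abcam median was 1.24.

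The mean signal at called promoters peaked at the TSS. Over the 99 called promoters, depth in the bin from 0 to 99 bp downstream of the TSS was 19.5 times the genome mean with Santa Cruz, 19.0 times with Abcam and 3.78 times in the input. Beyond 1500 bp it was 2.48, 2.56 and 1.47 times. At the 18 called germline promoters the highest bin lay at 100 to 199 bp, with 26.1 times for Santa Cruz, 23.9 times for Abcam and 3.66 times for the input. The Santa Cruz values describe promoters that were chosen by this same signal.

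The place of the highest depth differed between promoters. The highest 100-bp bin of each of the 99 promoters reached a median of 32.1 times the genome mean with Santa Cruz and 5.13 times in the input. The Santa Cruz values ran from 10.3 at Olfr1461 to 76.7 at Hdac2. It lay within 500 bp of the TSS at 79 of the 99 promoters (79.8%), and the highest input bin did so at 69 (69.7%). At the germline promoters these counts were 14 and 13 of 18. The highest Abcam bin, which does not involve the input, lay within 200 bp of the Santa Cruz one at 79 of the 99 as well, and at 16 of the 18 germline promoters. At Hdac2 and at Gm129 both antibodies peaked in the bin that starts 500 bp upstream of the TSS. At Tdrkh both peaked in the bin that starts 600 bp upstream. At Ddx4 and Sycp1 the Santa Cruz depth peaked in the first 100 bp downstream of the TSS, while the highest Abcam bin started 200 bp upstream at Ddx4 and 200 bp downstream at Sycp1.

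At Taf7l and Rad21l the signal lay farther from the TSS. At Taf7l, whose E-box starts 49 bases before the TSS, the highest Santa Cruz bin began 1100 bp downstream of the TSS, and at Rad21l it began 1800 bp upstream. Neither was called in a window of ±1 kb, where their ratios were 2.79 and 1.69. The annotated main TSS was thus not the centre of the signal at these genes.

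**Figure D3:**
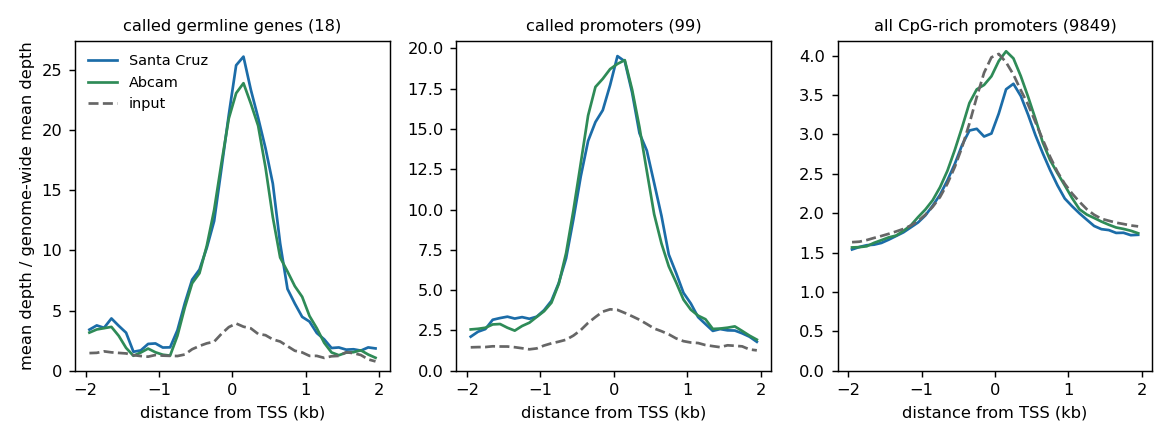
Mean depth in 100-bp bins around the TSS, divided by the genome-wide mean depth of each library, for 18 called germline promoters, 99 called promoters and 9849 CpG-rich promoters whose input was not in excess. The vertical scales differ between panels. Santa Cruz and Abcam peak together at called promoters, while over all CpG-rich promoters Santa Cruz reaches 3.64 times the genome mean where the input is at 3.76.

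Over all CpG-rich promoters, and without a GC correction, the Santa Cruz library showed no mean enrichment over the input at the TSS. Within 500 bp of the TSS its depth was 3.22 times the genome mean, against 3.66 for Abcam and 3.58 for the input. The median ratio of the ±2 kb windows was 0.890 at CpG-rich and 0.895 at CpG-poor promoters. The input itself was thus more than 3 times the genome mean at CpG-rich starts. Beyond 1500 bp the depth was 1.67 times the genome mean with Santa Cruz and 1.77 times in the input. The paper states that it normalized its ChIP-seq data against input, and its tracks were not examined here.

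The called promoters were mostly CpG-rich, and more of them held an E-box than promoters in general. CpG-rich means an observed to expected CpG of at least 0.6 and a GC content of at least 50% within 500 bp of the TSS. Of the 99 called promoters 85 were CpG-rich (85.9%, against 45.6% of all tested). CACGTG, searched on both strands from 250 bp upstream to 50 bp downstream of the TSS, occurred in 28 of them (28.3%). It occurred in 7.76% of all tested promoters and in 10.95% of the CpG-rich ones. All 28 were CpG-rich. The E2F-type sequence TTTCCCGC, searched the same way, occurred in 2 of the 99 (2.02%, against 1.42% of all). These 2 were Lypd4 and Dmrtc2, whose windows overlap and which are not CpG-rich. Among CpG-rich promoters it occurred in 0 of the 85 called and in 2.48% of all tested.

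Seen from the motif, and over all 113 called promoters, 28 of 1079 CpG-rich promoters with an E-box were called (2.60%). Without one, 58 of 8772 were called (0.661%). Among CpG-poor promoters 0 of 597 with an E-box were called, and 27 of 11141 without one (0.242%). Of these 27, 13 had excess input, and a share this small allows few calls among 597. The median ratio of CpG-rich promoters was 0.954 with an E-box and 0.883 without. Within the 99 called promoters without excess input, which were chosen by this ratio, the median was 3.31 for the 28 with the motif. It was 3.43 for the 71 without, and the Abcam medians were 3.56 and 3.30. These are counts of letters in a window and not of bound sites.

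Just inside the threshold lay Dmrtc2 (2.55), Spata22 (2.83) and Ifrd2 (2.59), and just outside lay Suz12 (2.82), Pogk (2.75) and Pphln1 (3.10).

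The 14 called promoters with excess input lay in 6 regions. Gm10800 on chromosome 2 held 554 and 512 fragment equivalents against 64.6 of scaled input, a ratio of 8.25 (7.34 to 9.27). Gm10718, Gm10720 and Gm10719, side by side on chromosome 9, had ratios of 6.81, 6.74 and 6.59. The Abcam ratios of these 4 were 6.95, 5.68, 5.32 and 5.45. These windows were thus high with both antibodies. The part of the excess input depth in these ratios was not tested.

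Of the 3 promoters called lower, A4galt, which encodes a glycosyltransferase, held 0 and 1 fragment equivalents in the repeats against 93 input fragments. Its mean rounded to 0, and the upper end of the ratio's interval was 0.402. The Abcam ratio was 0.870, and without Santa Cruz repeat 1 the call was lost (exact binomial test, adjusted p = 0.184). The other two, Gm10925 (0.463) and Gm10222 (0.471), lie side by side on chromosome 1 and held 1614 and 2058 input fragments.

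Gene bodies differed from the input by small amounts. From 2 kb downstream of the TSS to the gene end, 394 of 17724 bodies were higher (2.22%) and 599 lower (3.38%), with a median ratio of 0.920. The ratio was 2 or more at 468 bodies (2.64%). Those called higher had a median ratio of 1.44 and those called lower 0.703, and the median length of the former was 258 kb. The 5 largest were Olfr1229 (8.56), 4930467E23Rik (6.55), Vmn2r89 (6.32), Vmn2r97 (5.96) and Olfr988 (5.39), with 6 to 15 input fragments each. Of the 99 called promoters, 90 had a body to measure. Their median body ratio was 0.974, with 7 called higher and 1 lower.

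GC content moved with the ratio in every class. Each class was split into 10 groups of GC content. Promoters in the lowest group had a median ratio of 1.34 and those in the highest 0.835. Gene bodies went from 1.34 to 0.754 and distal bins from 1.48 to 0.802. Of the 394 bodies called higher 250 were in the lowest group. When each feature was compared with the median of its own GC group, 16 bodies were higher and 0 lower, while 171 promoters were higher, among them all 113 called without the correction. The Abcam medians went the same way, from 1.29 to 0.884 at promoters. All 113 called promoters were spread over the GC groups, with 4 to 17 in each. Of the 16 in the lowest group, all but Olfr1461, Rad21l and Cenpk had excess input.

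**Figure D4:**
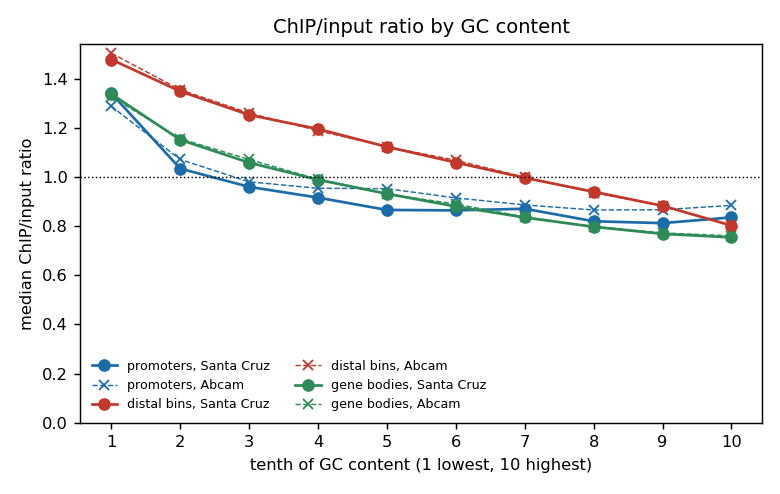
Median ChIP/input ratio in 10 groups of GC content for promoters, distal 4 kb bins and gene bodies. Filled points are Santa Cruz and crosses are Abcam, and the dotted line marks a ratio of 1. The ratio fell from 1.48 to 0.802 across distal bins and from 1.34 to 0.754 across gene bodies with Santa Cruz.

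Summed over the genome and without a GC correction, the Santa Cruz library held no larger share at promoters than the input. Promoter windows took 5.67% of Santa Cruz depth and 6.01% of input depth, a ratio of 0.943 (0.938 to 0.949). Gene bodies took 44.1% and 46.2%, a ratio of 0.954. Distal sequence took 50.2% and 47.8%, a ratio of 1.05. The Abcam ratio for promoters was 0.991. The classes differ in GC content, with highest GC groups that start at 55.1% for promoters, 52.5% for gene bodies and 46.5% for distal bins. The Santa Cruz medians there were 0.835, 0.754 and 0.802. The part of GC content in these shares was not tested.

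Distal calls were rare. Of 344359 bins of 4 kb away from promoters and coding genes, 44 were higher (0.0128%) and 1 was lower (0.00029%). A ratio of 2 or more was found at 17.6% of bins, and the median bin held 3 Santa Cruz fragments. The input was in excess at 24 of the 44, and 16 of the 44 lay on the X or Y chromosome, whose ratios as whole chromosomes were 1.23 and 1.83 against 0.925 to 1.08 for the autosomes. The 5 largest ratios among bins without excess input, from 11.99 to 17.6, rested on 4 to 8 input fragments. They were at chrX:154696001-154700000, chr6:131768001-131772000, chr5:10432001-10436000, chrX:73244001-73248000 and chr14:89608001-89612000. Their Abcam ratios ran from 0 to 5.52.

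Of the 20 called bins without excess input, 7 held at least 30 input fragments, and these were picked out after their values were seen. The strongest, at chr7:16644001-16648000, held 49.99 and 43.99 fragment equivalents against 59 input fragments, a ratio of 7.85 (5.28 to 11.8; exact binomial test, adjusted p = 9.29e-17), and the Abcam ratio was 7.96. It lies 11291 bp from the start of Zfp541, a zinc finger gene of spermatocytes. The bin at chr2:119696001-119700000 held 34.4 and 35.4 against 63, a ratio of 5.49 (3.54 to 8.48), with an Abcam ratio of 6.70. It lies 24964 bp upstream of the start of Mga, whose own promoter was called at 3.43. Both bins were as strong as the leading promoters.

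The 2 antibodies were compared directly, without the shared input. Of 21204 promoters tested, 2 differed after adjustment (0.00943%; exact binomial test), and both were among the promoters called lower. None of the 113 promoters called higher differed after adjustment, and 15 differed at an unadjusted p under 0.05, of which 14 were higher with Santa Cruz. These promoters were chosen by the Santa Cruz signal. The smallest unadjusted p among them was at Entpd1 and Tctn3, which share a window and held 17 Santa Cruz and 4 Abcam fragments each (exact binomial test, p = 0.00140, adjusted p = 1).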

How the data were processed

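Pcgf6 ChIP-seq of CCE ESCs was analysed from the deposited coverage signal. The authors extended reads to 300 bp and deposited the whole-number depth at each position on mm9, 1 file per library, neither scaled nor divided by input. The submitters' processing notes name Bowtie 0.1.2.7, and the filters on reads are not given in the sources used here. Depth sums were divided by 300 to give fragment equivalents. The Santa Cruz repeats were averaged and rounded for the test. Ratios were scaled by the depth sum of each file and given with Clopper-Pearson 95% intervals. A two-sided exact binomial test was used, with Benjamini-Hochberg adjustment over all features of a class that had at least 1 input fragment (threshold 0.05).

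Promoters (±2 kb) were those of 22359 protein-coding genes of the GENCODE annotation of mm9, of which 770 had under 1 input fragment and were not tested. A gene's main TSS was the one shared by most of its coding transcripts. Gene bodies had at least 1 kb. Distal bins of 4 kb overlapped no promoter window or coding gene. Fragment positions were also recovered from the steps in depth. In simulated coverage, 99.9% were recovered exactly, and among 21589 simulated promoters the test made 0 to 9 false calls beside 200 planted ones. The simulated promoters had no GC trend, which the data had, so these counts do not measure false calls in the data.

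Named genes were the 15 largest ratios among called promoters without excess input, the 4 largest with it, called members (up to 8), the highest and the lowest of each gene list, the 5 largest distal bins and gene bodies, and the lowest called promoters. Genes named beyond this were chosen after their values were seen, except Pou5f1, Sox2 and Nanog, which the study is about. Some named genes are not reported here. The members and lists were chosen with earlier results of these data known. Alternatives were each repeat left out, recovered fragments, median scaling, a minimum of 30 input fragments, a one-sided test, windows of ±1 and ±10 kb, a GC correction, another fold and a pseudocount. Python 3.11.15, numpy 2.4.6, scipy 1.17.1 and pandas 2.3.3 were used.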

Additional observations from a re-analysis of the deposited data

Results flagged for a closer look

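The promoters of Gm10925 and Gm10222 differed between the antibodies, by the direct exact test of Santa Cruz against Abcam fragments. The Santa Cruz level was 0.423 times the Abcam level at Gm10925 and 0.388 times at Gm10222. Against the input, the Santa Cruz ratios were 0.463 and 0.471, and the Abcam ratios were 1.09 and 1.22. With recovered fragments and 1 fragment kept per position, the Santa Cruz ratios became 1.03 and 1.01.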

How the results depend on the processing

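The 113 promoters called higher became 124 and 109 without each Santa Cruz repeat, and 83 to 142 under the other alternatives except the GC correction, which gave 171. Windows of ±10 kb kept 53 of the 113. The 3 promoters called lower became 5 to 6 without a repeat and 74 in windows of ±10 kb. The median promoter ratio of 0.893 was 0.886 to 0.894 without a repeat, 0.900 with median scaling, 0.869 with at least 30 input fragments, 0.840 in windows of ±1 kb, 0.934 in windows of ±10 kb, and 1 by construction after the GC correction. The 44 distal bins became 80 with recovered fragments. The 394 gene bodies became 16 with the GC correction, which was added after seeing the data. The 1445 promoters of 2-fold or more became 3236 at 1.5-fold, 724 with a pseudocount of 1 fragment and 477 with at least 30 input fragments, the last added after seeing the data. Gm10222 and Gm10925 turned from below to just above the input with recovered fragments, at 1.01 and 1.03. Of the 18 called germline promoters, 8 were also called in windows of ±10 kb and 16 in windows of ±1 kb, and all 18 under each other alternative. The cause of these changes was not tested. No paired analysis was possible because there was 1 input library and the repeats share most fragments. At the depth of the ChIP libraries, 3% of simulated promoters with a 2-fold enrichment and 50% of those with 3-fold were called, and nothing here measures variation between cultures.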
